A study of Mus musculus with 16 samples.

Results

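Guanylate-binding proteins and the genes of interferon signalling were examined in adult neural stem cells lacking Fmr1 (KO) and in wild-type (WT) cells. The set holds 9 of the 20409 named genes of the deposited count table: Gbp7, Gbp3, Gbp2, Irf1, Irf7, Irf9, Stat2, Nmi and B2m. They were taken by gene symbol, and the question they were gathered for is whether the difference in Gbp7 footprints between the genotypes belongs to a wider interferon state. The set was chosen by the measured Gbp7 footprint difference between KO and WT, and the Gbp3 difference was known as well. Both are described here, and a call on either is no independent test.

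The cells were isolated from dentate gyri of FVB/N males aged 8 to 10 weeks, either Fmr1-/y (KO) or WT littermates, and were kept dividing in EGF and FGF2 at 20 ng/ml each. Fmr1 encodes FMRP, an RNA-binding protein found on translated mRNAs, whose loss causes fragile X syndrome. Ribosome profiling, which sequences the mRNA fragments that ribosomes shield from nuclease (footprints), and cytoplasmic RNA sequencing were run on the same lysates after cycloheximide at 100 µg/ml for 10 min. There were 4 libraries in each of 4 groups, namely KO footprints, WT footprints, KO RNA and WT RNA, from 8 cultures that the labels call independently isolated. All cells are dispersed cultures, so they stand for stem cells without their tissue, and no interferon was named among the treatments of either genotype.

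Interferons are secreted cytokines that bind receptors of the cell surface and switch on JAK kinases and STAT proteins. Type I interferon acts through a complex with STAT2 and IRF9 that binds the interferon-stimulated response element (ISRE) in promoters, while interferon gamma acts through the gamma-activated site (GAS). Guanylate-binding proteins are large GTPases among the genes that interferon gamma induces most strongly, and they attack vacuoles and membranes of intracellular pathogens. A cell that responds to interferon raises many such genes together, along with class I antigen presentation.

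Libraries held 5343042 to 6600023 estimated counts in RNA and 9430732 to 17220236 in footprints. Levels are given as CPM, the counts of a gene as a share of all counts of its library, scaled between libraries of an assay by the TMM method, and as fold changes on the log2 scale of KO over WT. Fmr1 footprints lay at 24.1, 27.0, 12.7 and 14.7 CPM in KO replicates 1 to 4, against 128.9, 149.6, 149.3 and 148.6 CPM in WT replicates 1 to 4, so each footprint library went with its label. Fmr1 RNA was at 8.62, 30.8, 10.7 and 3.35 CPM in KO, against 40.8, 106.5, 37.2 and 27.4 CPM in WT; it was lower in KO in 4 of 4 pairs, but KO replicate 2 lay above WT replicate 4. Neural stem and progenitor markers summed to 8215 to 11740 CPM of footprints in KO and 10520 to 15240 CPM in WT, with 12 of 12 tested. Microglia and macrophage markers, 14 genes, summed to 0.220 to 1.11 CPM in KO and 0.108 to 0.913 CPM in WT, and 8 of them had no footprint in any library. Lymphocyte markers, 7 genes, summed to 0 to 0.0733 CPM in KO and 0 to 0.203 CPM in WT. Astrocyte markers summed to 908 to 2952 CPM in KO and 956 to 4283 CPM in WT, oligodendrocyte lineage markers to 1446 to 1735 CPM in KO and 1246 to 2077 CPM in WT, and neuronal markers to 46.6 to 105.0 CPM in KO and 34.8 to 219.4 CPM in WT. WT replicate 1 was the highest of the 8 footprint libraries for 28.1% of all genes tested and for 3 of the 8 described genes tested, and it is named beside the results that it moved most. In such bulk cultures fewer cells of a type and less RNA per cell cannot be told apart.

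Gbp7, Gbp3 and Gbp2 lie in 1 cluster on the plus strand of chromosome 3, at chr3:142530336-142550151, chr3:142560016-142573213 and chr3:142620663-142638008 in mouse GRCm38.p6, the assembly of mm10. Their promoters are shown because the question turns on interferon control and each carries an ISRE-like match close to its start. The sequences below are the 250 bases before a RefSeq transcript start, 5′ to 3′ on the plus strand, from chr3:142530086-142530335, chr3:142559794-142560043 and chr3:142620413-142620662. The Gbp3 window ends at a transcript start that lies inside the annotated gene. Capitals mark the ISRE-like match, which is GAAA, any 2 bases and GAAA or, read on the other strand, TTTC, any 2 bases and TTTC; in Gbp3 a pair of matches overlap.
Gbp7: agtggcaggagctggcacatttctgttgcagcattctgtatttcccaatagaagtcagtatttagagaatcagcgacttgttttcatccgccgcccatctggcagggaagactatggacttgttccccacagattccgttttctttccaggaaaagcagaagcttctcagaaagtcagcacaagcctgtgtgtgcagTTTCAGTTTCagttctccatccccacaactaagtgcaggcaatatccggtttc
Gbp3: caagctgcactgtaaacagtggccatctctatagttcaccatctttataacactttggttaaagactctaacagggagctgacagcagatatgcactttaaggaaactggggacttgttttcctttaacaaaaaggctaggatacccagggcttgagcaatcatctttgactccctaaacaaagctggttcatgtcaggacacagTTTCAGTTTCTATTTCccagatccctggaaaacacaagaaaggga
Gbp2: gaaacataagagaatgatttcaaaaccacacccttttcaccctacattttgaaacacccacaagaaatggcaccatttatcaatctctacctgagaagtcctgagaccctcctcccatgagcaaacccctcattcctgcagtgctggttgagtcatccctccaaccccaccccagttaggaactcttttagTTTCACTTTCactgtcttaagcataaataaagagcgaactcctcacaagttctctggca

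The ISRE-like match began 53 bases before the start in Gbp7, 45 and 39 bases before it in Gbp3 and 59 bases before it in Gbp2. The same 10 letters, TTTCAGTTTC, stood in Gbp7, in Gbp3 and in the Stat2 promoter, where they began 222 bases before the start. Across the 9 genes, 5 had an ISRE-like match (Gbp7, Gbp3, Gbp2, Stat2 and B2m) in at least 1 of their 12 windows. Over all 32851 RefSeq windows of 250 bases, 978 had one, which is 2.98%, a share of windows and not of genes. A GAS-like match, which is TTC, any 3 bases and GAA and reads the same on both strands, was present in Gbp7 at 2 places and in Irf1, against 7.02% of all windows. These matches are letters in a window and not measured binding.

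Gbp7 differed most of the set. Its footprints reached 8.79, 7.78, 8.35 and 10.4 CPM in KO replicates 1 to 4, against 0.653, 1.06, 1.22 and 1.19 CPM in WT replicates 1 to 4. Each KO library lay above each WT library, by 13.5, 7.32, 6.86 and 8.72 times within the pairs of replicates 1 to 4. The means were 8.82 ± 1.11 CPM in KO and 1.03 ± 0.26 CPM in WT (SD, n = 4 each), a log2 fold change of 3.10 (SE 0.26), from 453 counts in KO and 46 in WT. The size of this difference is among the values that chose the set.

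In RNA, Gbp7 had 6, 27, 12 and 7 counts in KO replicates 1 to 4 and no count in any of the 4 WT libraries. Against a floor of 3 counts over the WT group, the KO level was at least 16.9-fold higher, counting error only. The gene was too low to enter the RNA fit or the fit of translational efficiency (TE), which is the footprint change beyond the RNA change. With no filter on low counts it entered both and passed neither after adjustment, at an adjusted p of 0.803 in RNA and 1.0 in TE by edgeR; with WT at 0 the fitted sizes depend on the prior count and are not given.

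Gbp3, the neighbour of Gbp7, was higher in KO in both assays. Footprints stood at 10.1, 16.1, 20.4 and 16.8 CPM in KO replicates 1 to 4, against 6.89, 5.01, 7.10 and 5.08 CPM in WT replicates 1 to 4. RNA stood at 14.5, 41.7, 22.3 and 16.4 CPM in KO, against 10.0, 7.21, 8.23 and 4.54 CPM in WT. The groups overlapped in neither assay, and KO was above WT in 4 of 4 pairs of each. The smallest margin was in pair 1, at 1.47 times in footprints and 1.45 times in RNA, while the others ran from 2.88 to 3.32 times and from 2.70 to 5.79 times. The log2 fold change was 1.37 (SE 0.24) in footprints and 1.66 (SE 0.41) in RNA, and the TE difference was -0.28 (SE 0.49), with an adjusted p of 1.0 by edgeR's quasi-likelihood test.

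**Figure D1:**
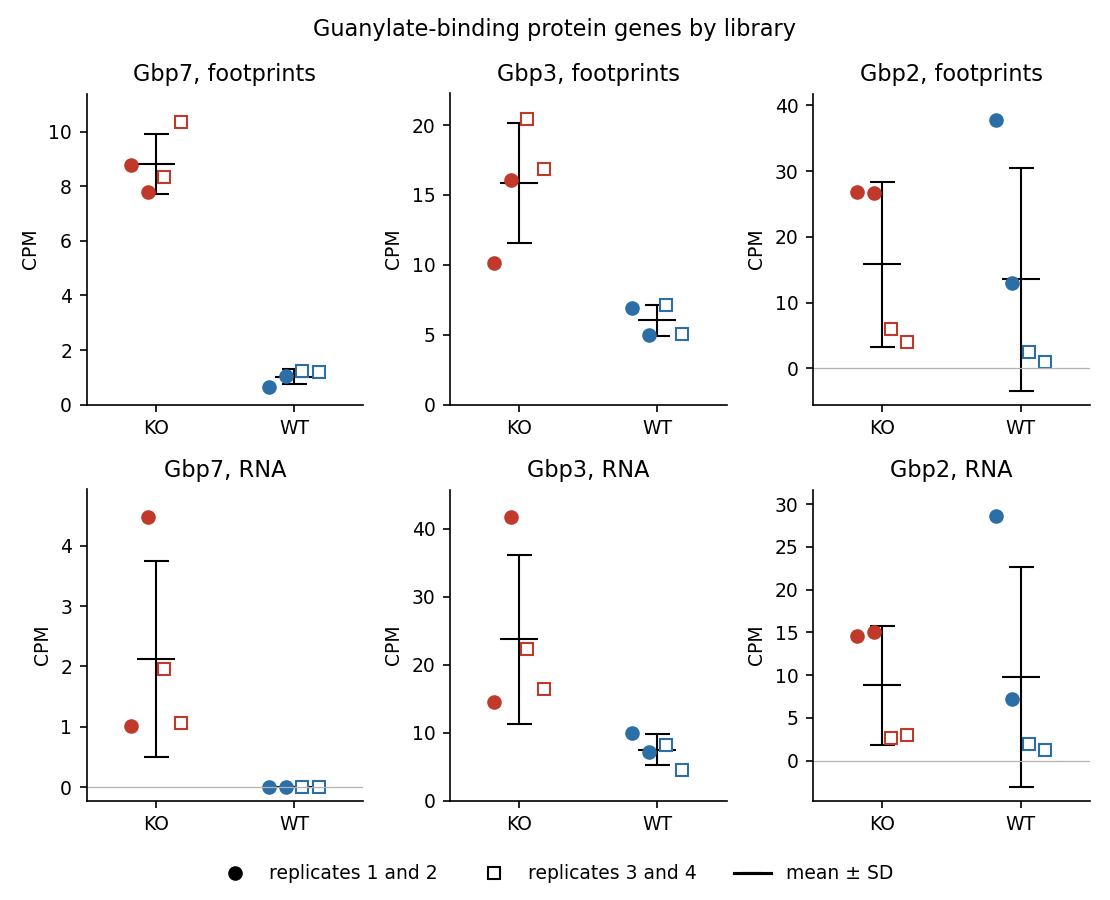
Levels of Gbp7, Gbp3 and Gbp2 in CPM (vertical axis, linear, line at 0) in KO and WT libraries, footprints above and RNA below; filled circles are replicates 1 and 2, open squares replicates 3 and 4, and bars the mean ± SD of 4 libraries. Gbp7 and Gbp3 do not overlap between genotypes, whereas Gbp2 separates by replicate: replicates 3 and 4 lie below replicates 1 and 2 in both assays.

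Gbp2, the third gene of the cluster described here, overlapped between genotypes. Its footprints ran at 26.7, 26.6, 5.94 and 3.98 CPM in KO replicates 1 to 4, against 37.7, 13.0, 2.43 and 0.973 CPM in WT replicates 1 to 4. Its RNA ran at 14.5, 15.1, 2.60 and 3.04 CPM in KO, against 28.6, 7.21, 1.98 and 1.25 CPM in WT. The level followed the replicate number. Replicates 3 and 4 were below replicates 1 and 2 without overlap, at 0.128 times in footprints and 0.136 times in RNA. Footprints of Irf7, Irf9 and Stat2 split in the same way, at 0.157, 0.39 and 0.692 times. How many of all genes split by replicate was not counted, so the split is not particular to Gbp2. KO was higher in 3 of 4 pairs of each assay and lower in pair 1, where the WT library is the highest of all. The log2 fold change was 0.69 (SE 0.47, adjusted p 0.999) in footprints and -0.14 (SE 0.97, adjusted p 1.0) in RNA by edgeR, with a TE difference of 0.90 (SE 1.2, adjusted p 1.0). Without WT replicate 1 the values were 1.30 in footprints and 1.34 in RNA, and the part of that library in the result was not tested. Footprints gave 0.08 in replicates 1 and 2 alone and 1.52 in replicates 3 and 4 alone. Whether Gbp2 differs from Gbp3 in its change was not tested.

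Of the other guanylate-binding proteins, 8 were in the table and 2 were tested. Gbp9 averaged 9.42 ± 5.34 CPM of footprints in KO and 7.91 ± 3.20 CPM in WT (SD, n = 4 each), a log2 fold change of 0.20 (SE 0.32). Gbp6 had 40 footprint counts in KO and 40 in WT, with a log2 fold change of -0.02 (SE 0.68). Neither passed the threshold in RNA, at 0.16 (SE 0.77) for Gbp9 and 0.57 (SE 1.26) for Gbp6, with an adjusted p of 1.0 by edgeR. Gbp5, just upstream of Gbp7, had 1 footprint count in KO and none in WT, and Gbp2b, between Gbp3 and Gbp2, had no count in any library. Gbp4 had 28 footprint counts in KO and 16 in WT, while Gbp8, Gbp10 and Gbp11 had at most 3 in a genotype. RSEM, named in the submitters' processing notes, divides reads that match several genes, so values of these similar genes are uncertain.

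The 4 nearest genes of the table on each side that are no guanylate-binding proteins were set beside the cluster. They start between chr3:141210004 (Pdha2) and chr3:144188530 (Lmo4), with Unc5c at chr3:141465564, so they reach well beyond the cluster. In footprints, Pdlim5 upstream stood at -0.09 (SE 0.13) and Bmpr1b at -0.12 (SE 0.49) on the log2 scale of KO over WT, and Ccbl2 (Kyat3 in RefSeq), Gtf2b, Pkn2 and Lmo4 downstream had 0.39 (SE 0.22), 0.03 (SE 0.10), -0.03 (SE 0.13) and -0.28 (SE 0.22). Each had an adjusted p of 0.999 by edgeR, and Pdha2 had no count. Unc5c, which encodes a netrin receptor, had footprints at 2.42, 1.49, 6.22 and 6.11 CPM in KO replicates 1 to 4, against 0.290, 1.22, 1.22 and 1.08 CPM in WT replicates 1 to 4. Its groups did not overlap, against 1.03% of all genes with KO above WT in footprints. The log2 fold change was 1.90 (SE 0.48), with an adjusted p of 0.640 by edgeR. Unc5c RNA was too low to test, with 31 counts in KO and 27 in WT.

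**Figure D2:**
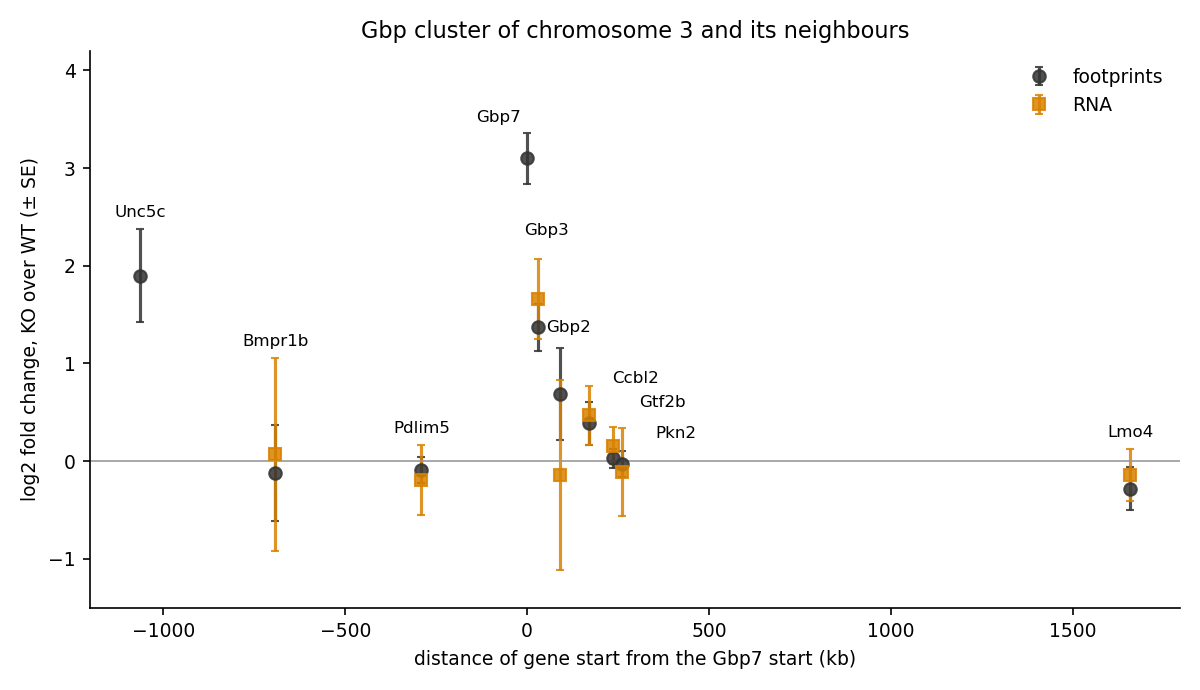
Log2 fold change of KO over WT (vertical axis, ± SE) for the genes around the Gbp cluster of chromosome 3, by distance of the gene start from the Gbp7 start in kb (horizontal axis); circles are footprints and squares RNA. Gbp7 stands at 3.10 and Gbp3 at 1.37 in footprints, Unc5c at 1.90, and the other neighbours between -0.28 and 0.69.

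Footprint profiles most like that of Gbp7, by the root mean square difference of log2 CPM centred per gene over the 8 footprint libraries, were those of Naaa (0.61), Trf (0.63), Eva1c (0.64), Car3 (0.68) and Pcdhga12 (0.69). The median over all genes was 1.52. Naaa, an amidase of lysosomes, averaged 7.69 ± 3.45 CPM in KO and 0.928 ± 0.389 CPM in WT, and Trf, the iron carrier transferrin, 555.1 ± 354.2 CPM in KO and 61.5 ± 32.3 CPM in WT (SD, n = 4 each). None of the 5 is in the interferon lists used here, and as the profile chose them they have no test; Pcdhga12 shares exons with its gene cluster and is uncertain. By the same measure Gbp3 was at 0.90, rank 21 of 11471 genes. The profiles span both genotypes, so the measure takes in the differences known beforehand for Gbp7 and Gbp3 and is no separate support. Stat2 was at 1.49, Nmi at 1.51, Irf1 at 1.78, B2m at 1.92, Irf9 at 1.93 and Gbp2 at 2.1, around or above the median.

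The transcription factors of the pathway showed no difference past the threshold. Irf1, an interferon-induced activator of Gbp and class I genes, had footprints at 21.3, 12.5, 17.0 and 9.44 CPM in KO replicates 1 to 4, against 31.9, 13.4, 22.2 and 11.9 CPM in WT replicates 1 to 4. Its RNA was at 10.99, 7.62, 12.5 and 10.4 CPM in KO, against 26.7, 5.21, 23.9 and 14.9 CPM in WT. KO was below WT in 4 of 4 footprint pairs and in 3 of 4 RNA pairs, with overlapping groups. Log2 fold changes were -0.40 (SE 0.36, adjusted p 0.999) in footprints, -0.76 (SE 0.46, adjusted p 1.0) in RNA and 0.39 (SE 0.61, adjusted p 1.0) in TE by edgeR. Leaving out WT replicate 1, the highest library, brought footprints to -0.09 and RNA to -0.50, and leaving out WT replicate 3 brought footprints to -0.20; the part of these libraries was not tested. With KO and WT paired by replicate number, the footprint value was -0.35 (SE 0.13, unadjusted p 0.0405, adjusted p 0.854 by edgeR).

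Irf9, the DNA-binding partner of STAT2, had footprints at 3.15, 4.87, 1.30 and 1.02 CPM in KO replicates 1 to 4, against 4.06, 5.09, 2.43 and 1.95 CPM in WT replicates 1 to 4. Its RNA stood at 9.13, 7.12, 11.1 and 9.74 CPM in KO, against 11.8, 7.67, 8.56 and 10.5 CPM in WT. In footprints KO was below WT in 4 of 4 pairs, but the larger split was by replicate, with replicates 3 and 4 at 0.39 times the level of replicates 1 and 2 and no overlap. RNA showed no such split, at 1.12 times. The share of all genes with such a split was not counted. The log2 fold change was -0.52 (SE 0.30, adjusted p 0.999) in footprints, -0.05 (SE 0.28, adjusted p 1.0) in RNA and -0.45 (SE 0.39, adjusted p 1.0) in TE by edgeR.

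Stat2, which carries the transactivating end of that complex, overlapped between genotypes. Footprints were at 14.5, 15.2, 11.3 and 10.7 CPM in KO replicates 1 to 4, against 12.9, 17.0, 10.6 and 8.65 CPM in WT replicates 1 to 4. RNA was at 28.9, 22.9, 23.4 and 22.1 CPM in KO, against 24.1, 24.7, 23.7 and 34.7 CPM in WT. KO was above WT in 3 of 4 footprint pairs and in 1 of 4 RNA pairs. By replicate, footprints of replicates 3 and 4 lay below those of replicates 1 and 2 without overlap, at 0.692 times, while RNA overlapped. Footprints gave a log2 fold change of 0.09 (SE 0.16, adjusted p 0.999), RNA -0.14 (SE 0.23, adjusted p 1.0) and TE 0.24 (SE 0.26, adjusted p 1.0) by edgeR.

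Irf7, which amplifies type I interferon production and is raised by interferon itself, was close to 0 in all cultures. It had 4, 13, 1 and 2 footprint counts in KO replicates 1 to 4, against 25, 3, 1 and 1 in WT replicates 1 to 4. RNA counts were 0, 5, 0 and 4 in KO, against 9, 0, 6 and 0 in WT. WT replicate 1 held most of the WT counts, the genotypes overlapped, and the gene was too low to be tested in either assay.

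Nmi, a protein induced by interferon that binds STAT proteins, was higher in KO in RNA, short of the adjusted threshold, and overlapped between genotypes in footprints. Its RNA was at 6.09, 11.3, 14.0 and 6.54 CPM in KO replicates 1 to 4, against 6.08, 3.22, 5.43 and 2.97 CPM in WT replicates 1 to 4. KO lay above WT in every library, though KO replicate 1 and WT replicate 1 nearly met. Footprints were at 10.9, 10.8, 16.5 and 11.7 CPM in KO, against 11.1, 11.5, 17.0 and 11.02 CPM in WT, which overlapped. The RNA log2 fold change was 1.10 (SE 0.41, unadjusted p 0.0255), the footprint one -0.02 (SE 0.19, unadjusted p 0.902) and the TE difference -1.11 (SE 0.45, unadjusted p 0.0261). None of these passed after adjustment by edgeR, at an adjusted p of 1.0 in RNA and TE and 0.999 in footprints. Footprints over RNA, as a log2 ratio, ran from -0.08 to 0.79 in KO and from 0.81 to 1.76 in WT, against a median over all genes of -0.16 in KO and -0.17 in WT.

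B2m, the light chain of class I MHC molecules and a common interferon target, was the most abundant of the set. Rounded TPM, a value per length that the authors deposited, put its footprints at 250 to 623 in KO and 276 to 1316 in WT, while none of the other 8 genes passed 34 in any footprint library. Footprints were at 186.5, 168.4, 113.9 and 78.6 CPM in KO replicates 1 to 4, against 370.1, 208.0, 174.6 and 94.8 CPM in WT replicates 1 to 4. RNA was at 28.6, 30.6, 17.6 and 8.67 CPM in KO, against 53.5, 21.5, 22.6 and 18.5 CPM in WT. KO was below WT in 4 of 4 footprint pairs and 3 of 4 RNA pairs, while the groups overlapped. The log2 fold change was -0.59 (SE 0.26, unadjusted p 0.0504, adjusted p 0.999) in footprints, -0.44 (SE 0.47, adjusted p 1.0) in RNA and -0.14 (SE 0.57, adjusted p 1.0) in TE by edgeR. Without WT replicate 1 these became -0.38 in footprints and 0.04 in RNA, and the part of that library was not tested. Paired by replicate number, the footprint value was -0.55 (SE 0.16, unadjusted p 0.0140, adjusted p 0.785 by edgeR). B2m footprints stood far above its RNA in both genotypes, with a median log2 ratio of 2.68 in KO and 2.86 in WT.

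**Figure D3:**
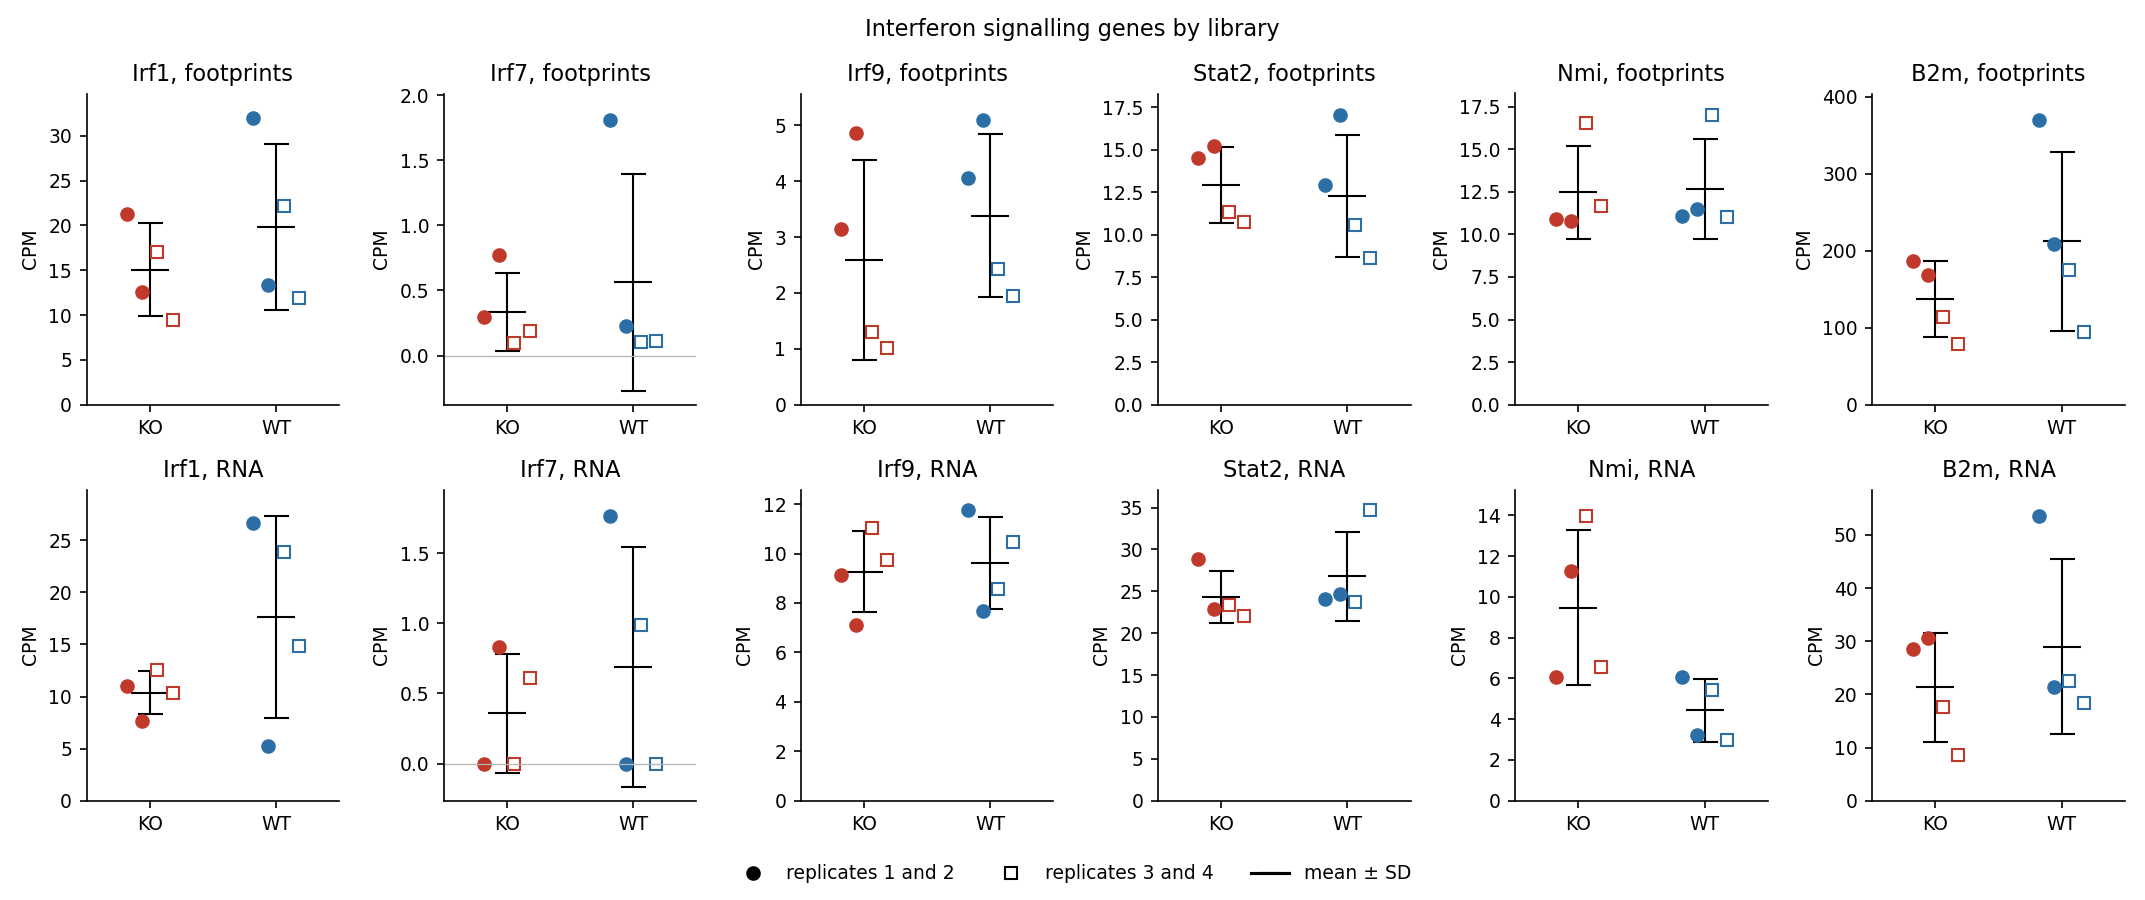
Levels of Irf1, Irf7, Irf9, Stat2, Nmi and B2m in CPM (vertical axis, linear) in KO and WT libraries, footprints above and RNA below, with the mean ± SD of 4 libraries; filled circles are replicates 1 and 2 and open squares replicates 3 and 4. KO and WT overlap in every panel but Nmi RNA, where KO ranges from 6.09 to 14.0 CPM and WT from 2.97 to 6.08 CPM.

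Across the set, 8 of the 9 genes entered the footprint fit, and Gbp7 alone passed the adjusted threshold of 0.05. Its footprint contrast chose the set, so this call is no test of the set. Over all genes 0.0349% passed, a share that the Gbp7 call cannot be weighed against. With KO and WT paired by replicate number Gbp7 did not pass, at a log2 fold change of 3.11 (SE 0.27, adjusted p 0.143 by edgeR). The tests ran over 11472 genes in footprints, 11097 in RNA and 10863 in TE. In RNA 0 of 7 tested passed, against 0.00901% of all genes, and in TE 0 of 7, against 0%, by edgeR. Gbp7 and Gbp3 aside, 0 of 6 genes passed an unadjusted p under 0.05 in footprints, against 4.59% of all genes, while Nmi was the 1 of 6 that did in RNA, against 1.87%, and in TE, against 0.129%. None of those 6 separated the genotypes in footprints, against 1.03% of all genes with KO above WT, and Nmi did so in RNA, against 0.703%. Irf1, Irf9 and B2m footprints were lower in KO in 4 of 4 pairs, though in pair 2 Irf1 was at 0.938 and Irf9 at 0.957 times WT. Gbp2 and Stat2 footprints were higher in KO in 3 of 4 pairs. How many of all genes were lower in 4 of 4 pairs was not counted, so these pairs are no result about the set.

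**Figure D4:**
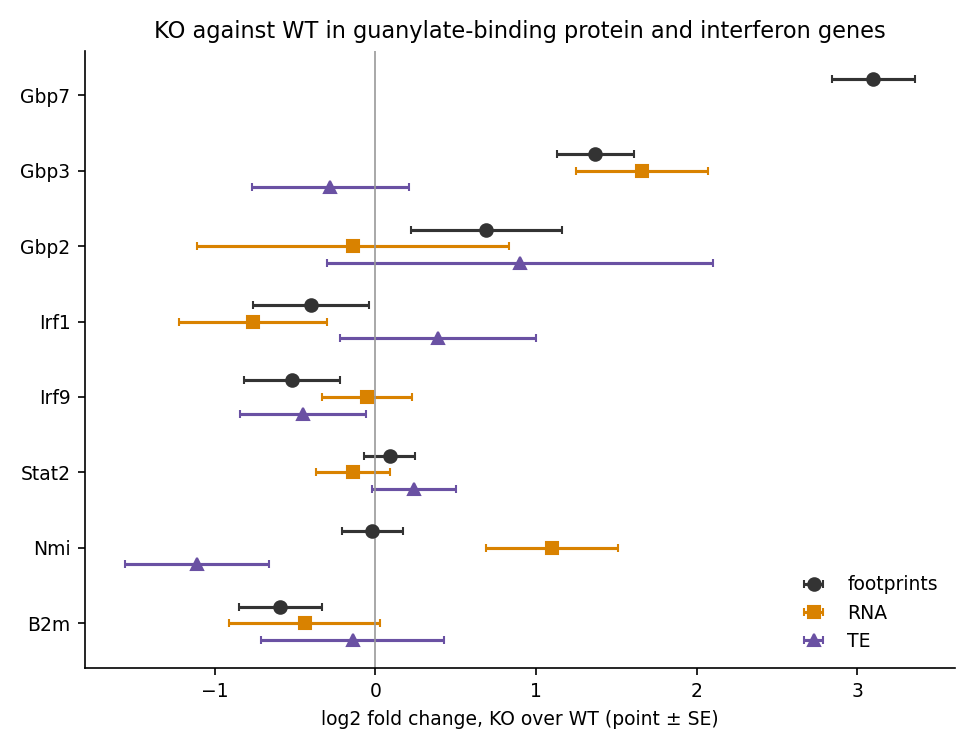
Log2 fold change of KO over WT (± SE) of the genes tested, in footprints, RNA and TE. Gbp7 at 3.10 and Gbp3 at 1.37 in footprints lie to the right of the line at 0, while Irf1, Irf9 and B2m lie at -0.40, -0.52 and -0.59.

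The wider pathway was described by 10 lists of other genes, 163 symbols of which 153 were in the table. In footprints 88 were tested and 0 passed the adjusted threshold by edgeR; 2 were higher and 4 lower in KO at an unadjusted p under 0.05, together 6.82% against 4.59% of all genes (2.06% higher and 2.54% lower). A positive fold change was found in 37 of the 88, or 42%, against 51.2% of all genes, with a median of -0.04 against 0.006. In RNA 80 were tested, and 0 passed at either threshold, against 0.00901% of all genes at the adjusted and 1.87% at the unadjusted one. Of the 80, 39 were positive (48.8%, against 51.3% of all genes). Without WT replicate 4 the RNA count at the unadjusted threshold was 1 higher and 5 lower of 83, against 383 of 11272 genes in all. In TE 0 of 77 passed at either threshold, against 0% of all genes at the adjusted and 0.129% at the unadjusted one. With shares so low over all genes, these TE counts say little about the pathway. Without WT replicate 1 the footprint split was 6 higher and 1 lower, with 45 of 86 positive, while without KO replicate 1 it was 4 higher and 1 lower. Other libraries moved it as well: without WT replicate 2 it was 2 higher and 5 lower, without WT replicate 3 0 and 3, without WT replicate 4 1 and 7, without KO replicate 2 0 and 3, without KO replicate 3 1 and 6, and without KO replicate 4 2 and 2. Replicates 1 and 2 alone gave 0 higher and 5 lower, replicates 3 and 4 alone 4 higher and 0 lower, and the fit paired by replicate number 4 and 5. The unadjusted count over all genes moved as well. It was 395 of 11654 in replicates 1 and 2, 532 of 11522 in replicates 3 and 4 and 663 of 11472 with the pairs. With a library left out it ran from 378 of 11557 (without KO replicate 1) to 746 of 11523 (without WT replicate 2). The list counts were not tested against these. With DESeq2, 1 list gene of 88 passed after adjustment in footprints, against 82 of 11472 genes in all. It was Ifitm3, which was lower in KO.

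Interferon ligands were at or near 0. Of 13 in the table, Ifnb1 and Ifng included, all 13 had no footprint in any of the 8 libraries, and 12 had no RNA count. Receptors were present, with 5 of 6 tested: Ifnar1, a chain of the type I receptor, averaged 78.5 ± 6.54 CPM of footprints in KO and 89.7 ± 22.7 CPM in WT, and Ifngr1, of the interferon gamma receptor, 64.6 ± 5.55 CPM in KO and 67.6 ± 8.00 CPM in WT (SD, n = 4 each). Receptor footprints had a median log2 fold change of -0.07 with 0 of 5 positive, while receptor RNA had 0.02.

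Kinases and STAT proteins, 5 of 5 tested, had a footprint median of -0.17. Stat3, which relays cytokine signals, had a log2 fold change of -0.32 (SE 0.35), and Jak1, a kinase of the interferon receptors, 0.24 (SE 0.15). The list of other interferon regulatory factors, which also holds proteins that bind IRF2, had 6 of 9 tested and a median of -0.11. The factors Irf2, Irf3 and Irf8 stood at 0.06 (SE 0.14), 0.07 (SE 0.12) and -0.28 (SE 0.39), and the most abundant genes of the list, the IRF2-binding Irf2bpl and Irf2bp2, at -0.23 (SE 0.19) and -0.23 (SE 0.23). Immunity-related GTPases, a second family that guards against intracellular pathogens, had 3 tested and a median of -0.14, with Irgm1 at -0.14 (SE 0.18) and Igtp at 0.40 (SE 0.40).

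Interferon-stimulated genes, 26 tested in footprints of 52 in the table, had 11 positive and a median of -0.04. Ifitm3, a membrane protein that blocks viral entry, had footprints at 0.147, 0.950, 1.30 and 0.740 CPM in KO replicates 1 to 4, against 40.4, 31.8, 7.81 and 0.649 CPM in WT replicates 1 to 4. WT replicate 4 was inside the KO range while WT replicates 1 to 3 lay far above it, and the log2 fold change was -4.10 (SE 1.12, adjusted p 0.764 by edgeR). Pml, which builds nuclear bodies, had 31.1, 47.4, 40.1 and 42.0 CPM in KO, against 14.4, 30.5, 19.5 and 29.1 CPM in WT. It was the 1 list gene without overlap (1.14% of those tested, against 1.03% of all genes), with a log2 fold change of 0.78 (SE 0.26, adjusted p 0.933 by edgeR). Tor3a had -0.44 (SE 0.16, adjusted p 0.999 by edgeR), and the most abundant, Ogfr and Cd47, had -0.02 (SE 0.11) and 0.13 (SE 0.24).

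Some classical interferon reporters were sparse, while other interferon-stimulated genes of the list were not. Ifit2 had 587 footprint counts in KO and 620 in WT, and Ifi27 had 2828 in KO and 3191 in WT. Named after their values were seen, Isg15, a ubiquitin-like modifier, had 35 footprint counts in KO and 22 in WT, Ifit1, which binds viral RNA, 23 in KO and 22 in WT, and Usp18, which removes Isg15, 70 in KO and 37 in WT. Usp18 was tested in footprints, with a log2 fold change of 0.93 (SE 0.51, adjusted p 0.999 by edgeR). Lgals3bp, also named after its values were seen, had a log2 fold change of 1.12 (SE 0.66) in footprints, with KO replicate 3 at 59.4 CPM the other KO libraries at 7.36 to 11.8 CPM, WT replicate 3 at 18.7 CPM and the other WT libraries at 3.68 to 7.62 CPM.

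Class I antigen processing and presentation, 16 of 18 tested, had a footprint median of -0.08 with 5 positive. H2-D1, a class I heavy chain that pairs with B2m, had 27.3, 28.3, 13.8 and 9.07 CPM in KO replicates 1 to 4, against 122.5, 39.2, 22.4 and 9.94 CPM in WT replicates 1 to 4. WT replicate 1 was far above the others and KO was lower in 4 of 4 pairs, with a log2 fold change of -1.04 (SE 0.43, adjusted p 0.999 by edgeR). H2-K1, a second heavy chain named after its values were seen, had -0.44 (SE 0.41). Canx, a chaperone of the endoplasmic reticulum, averaged 1875 ± 126.2 CPM in KO and 1879 ± 118.2 CPM in WT (SD, n = 4 each), and Pdia3, which works beside it, had 0.06 (SE 0.17). Similar class I genes can share reads, so single H2 values are uncertain.

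Nucleic acid sensors and their adaptors, 10 of 16 tested, had a median of -0.06. Ddx58, the sensor RIG-I, had a log2 fold change of -0.66 (SE 0.23, adjusted p 0.984 by edgeR), and Ifih1, the sensor MDA5, had 1.03 (SE 0.40, adjusted p 0.999 by edgeR). Tmem173, the adaptor STING, had -0.59 (SE 0.54), and Mavs, the adaptor of the RNA sensors, 0.12 (SE 0.10). Mb21d1, the DNA sensor cGAS, named after its values were seen, had footprints at 0.440, 9.21, 10.5 and 20.9 CPM in KO replicates 1 to 4, against 0, 4.18, 0.203 and 0 CPM in WT replicates 1 to 4. KO was above WT in 4 of 4 pairs, but KO replicate 1 fell within the WT range, and the log2 fold change was 3.28 (SE 1.68, adjusted p 0.999 by edgeR). Negative regulators of interferon signalling, 15 of 17 tested, had a median of 0.06, with Ptpn11 at 0.18 (SE 0.12) and Rnaseh2b at 0.05 (SE 0.12).

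**Figure D5:**
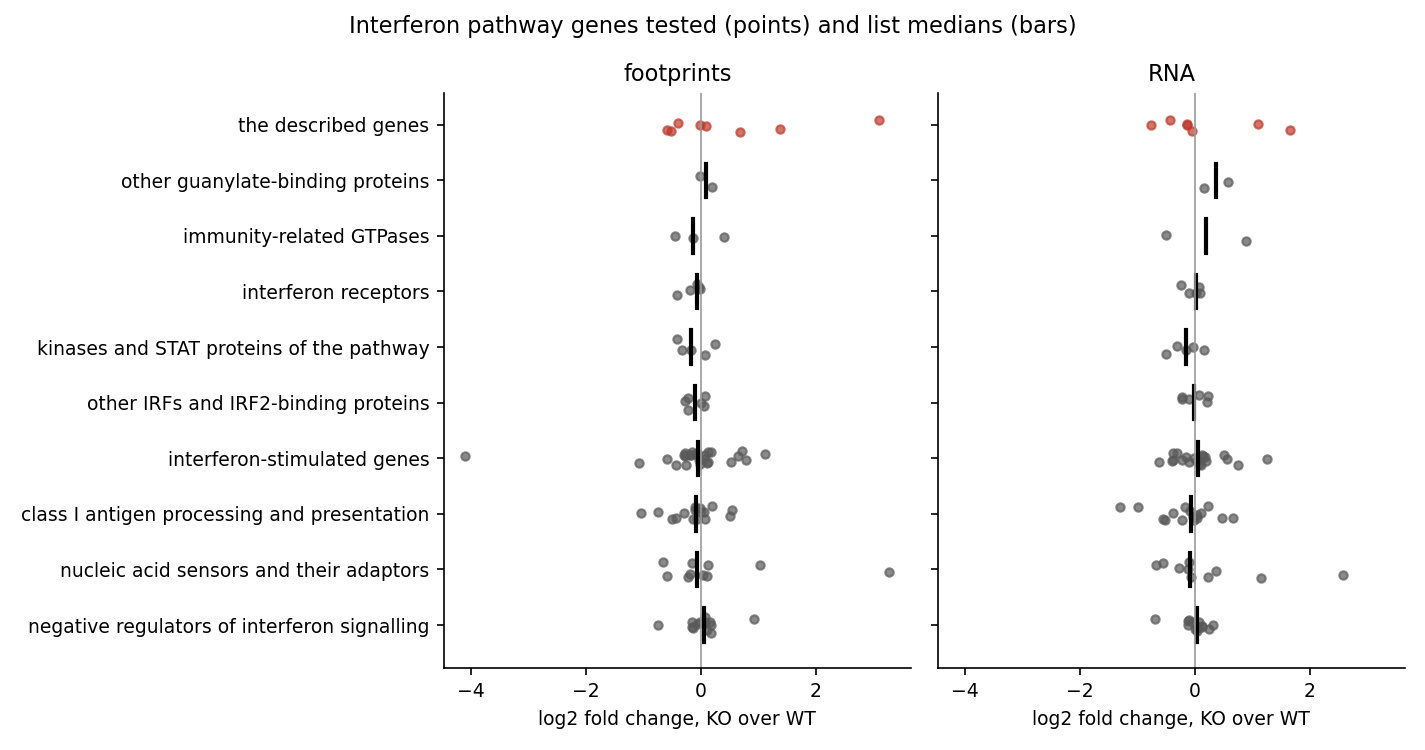
Log2 fold change of KO over WT (horizontal axis) of each gene tested in footprints (left) and RNA (right); points are genes and bars list medians, with the described genes tested in the top row without a bar and the IRF2-binding proteins in the row of other IRFs. List medians of footprints lie between -0.17 and 0.09, and single genes such as Ifitm3 at -4.10 and Mb21d1 at 3.28 lie far from their list.

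The 9 endothelial and mural cell markers summed to 10.9 to 41.8 CPM of footprints in KO and 9.64 to 23.5 CPM in WT, which overlapped, and to 14.5 to 34.0 CPM of RNA in KO and 8.40 to 23.5 CPM in WT. Of the 4 tested in footprints 3 were positive and 0 passed the adjusted threshold; Cldn5 had no count, and Pecam1, Cdh5, Pdgfrb and Rgs5 had at most 13 counts in a group. Tek, an angiopoietin receptor, had a footprint log2 fold change of 1.39 (SE 0.46, adjusted p 0.925 by edgeR). It did not overlap in RNA, where it was higher in KO at 1.78 (SE 0.61, adjusted p 1.0 by edgeR), against 0.703% of all genes with KO above WT. Flt1, a receptor for vascular growth factor, had 1.00 (SE 0.47) and Acta2, an actin of mural cells, -0.36 (SE 0.57).

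Vim, an intermediate filament of stem cells, was the 1 stem cell marker whose RNA lay below WT in each KO library, against 0.577% of all genes, with means of 2219 ± 400.8 CPM in KO and 3625 ± 788.8 CPM in WT (SD, n = 4 each) and a log2 fold change of -0.71 (SE 0.22, adjusted p 1.0 by edgeR). Fabp7, next in abundance among these markers, had -0.02 (SE 0.43) in RNA, and 7 of the 12 stem cell markers tested in RNA were positive. Cspg4, of oligodendrocyte precursors, had a footprint log2 fold change of -0.69 (SE 0.19, adjusted p 0.764 by edgeR). Olig1 and Olig2, the most abundant of its list, had 0.03 (SE 0.18) and -0.08 (SE 0.15) in footprints, where 2 of the 5 tested were positive. The astrocyte enzyme Aldh1l1 had 0.47 (SE 0.16, adjusted p 0.933 by edgeR) in footprints but -0.15 (SE 0.42) in RNA. The most abundant astrocyte markers, Slc1a3 and Aldoc, had 0.18 (SE 0.22) and -0.24 (SE 0.36) in footprints. Of the astrocyte markers tested, 5 of 8 were positive in footprints and 1 of 7 in RNA. Stmn2, a neuronal protein, had footprints at 0, 0.0594, 13.0 and 12.2 CPM in KO replicates 1 to 4, against 0, 0, 0.913 and 2.27 CPM in WT replicates 1 to 4. It was high in KO replicates 3 and 4 while the groups overlapped, with a log2 fold change of 2.94 (SE 0.53, adjusted p 0.239 by edgeR). Stmn2 RNA was too low to test, with 2 counts in KO, none of them in replicates 3 and 4, and 5 in WT. Syt1, of neurons, was likewise high in footprints of KO replicates 3 and 4, at 24.7 and 25.3 CPM, but also in WT replicate 2, at 23.2 CPM. Its footprint log2 fold change was -0.73 (SE 3.07). Tubb3, a neuronal tubulin, had an RNA log2 fold change of -1.15 (SE 0.48, adjusted p 1.0 by edgeR) and -0.87 (SE 0.60) in footprints. Of the neuronal markers tested in footprints, 3 of 6 were positive. The part of these markers in the Gbp7 and Gbp3 differences was not tested.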

How the data were processed

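The authors deposited estimated counts per gene, whole numbers, for 16 libraries, and a TPM table rounded to whole numbers (treated as a score). Per the submitters' processing notes RSEM 1.2.11, TopHat2 2.0.9, Bowtie2 2.1.0 and cutadapt 1.7.1 were among the tools, with build mm10 and no roles. Neither strand use nor identifier collapsing is stated in the labels. Footprint identifiers have 5 nt in replicates 1 and 2 and 8 nt in replicates 3 and 4, per the labels' protocols.

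Of 20436 rows, 27 lacked a gene symbol (0.244% to 0.422% of each library) and were dropped. The test was that of edgeR 4.0.16 in R 4.3.3, with TMM, filterByExpr, a quasi-likelihood F test (two-sided), Benjamini-Hochberg adjustment over all genes, threshold 0.05. RNA was fitted by genotype, footprints by genotype and identifier length, and TE as the assay by genotype interaction over 16 libraries. SEs come from the F statistic. Alternatives were DESeq2 1.42.0, no filter on low counts, a replicate block, a changed identifier term, replicates 1 and 2 or 3 and 4 alone, and each library left out. A floor of 3 counts over a group covers counting error only. Promoters and positions are RefSeq GRCm38.p6; 20300 symbols matched, with synonyms.

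The genes and lists were chosen with earlier results of these data known. The result for 1 gene is not reported here. Named in addition were the 5 genes with the profile most like Gbp7, the 4 nearest genes on each side of the Gbp cluster, and, per list, genes at an unadjusted p under 0.05 and the 2 most abundant. Sample titles give KO and WT the same replicate numbers. Deviations from group means of same-numbered libraries correlated in footprints (r = 0.380 to 0.540) and in RNA (0.481 to 0.613). Differently numbered libraries ran from -0.456 to 0.453 in footprints and from -0.542 to 0.368 in RNA. In both assays these were positive between cultures with the same footprint identifier length and negative between cultures with different lengths. In footprints KO replicate 2 correlated more with WT replicate 1 (0.453) than with WT replicate 2 (0.380). As all same-numbered values exceeded 0.1, these numbers are treated as pairs, which the correlations alone do not establish. In RNA the p-values of the main fit measure the spread between these cultures within a genotype. In footprints they measure the spread within a genotype that remains after the identifier length is fitted. Neither main fit has a term for the pairs, which only the replicate block takes in. The TE fit takes the footprint and RNA library of a culture as independent. Its p-values therefore do not measure the spread of TE between cultures.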

Additional observations from a re-analysis of the deposited data

Results flagged for a closer look

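Among the 35 groups of 4 libraries checked, 5 held a library far from the other three, where chance alone gives about 1 in 20 groups. In footprints, KO replicate 3 had 16.5 CPM of Nmi and WT replicate 3 had 17.0 CPM, each above the rest of its genotype. WT replicate 1 had 1.81 CPM of Irf7 in footprints and 53.5 CPM of B2m in RNA. WT replicate 4 had 34.7 CPM of Stat2 in RNA.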

How the results depend on the processing

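Of 22 fold changes of the described genes, 11 kept their sign under all 14 alternatives, Gbp7 (2.94 to 3.27) and Gbp3 (1.15 to 1.60) in footprints and Nmi in RNA (0.85 to 1.28) among them. The genes past the threshold in footprints were 4, against 82 with DESeq2 (56 higher, 26 lower), 0 with the replicate block, 0 in replicates 1 and 2 alone, 2 in replicates 3 and 4 alone and 0 to 14 with a library left out. In RNA they were 1, against 20 with DESeq2, 0 with the block, 0 with the identifier term, 0 in either pair of replicates alone and 0 to 1 with a library left out; in TE they were 0 throughout. Of the described genes in footprints, 1 passed, against 2 with DESeq2 (Gbp7 and Gbp3) and 0 with the block (Gbp7 at 3.11). There were 0 in either pair of replicates alone. With a library left out there were 0 to 1, and the call was lost without WT replicate 2, 3 or 4 or KO replicate 1 or 2. The Gbp7 and Gbp3 differences were known when the set was chosen, so these calls are no independent test. The block changed no other call at the adjusted threshold. At an unadjusted p under 0.05 by edgeR it gave 4 of the 8 described genes tested in footprints against 2. It added Irf1 and B2m to Gbp7 and Gbp3, whose differences were known beforehand. Over all genes the block gave 663 of 11472, against 527 in the main fit. Signs turned for Gbp2 RNA (0.36 with the block, 0.19 with the identifier term, 0.80 in replicates 3 and 4, -0.53 to 1.34 with a library left out), Irf9 RNA (0.13 in replicates 3 and 4, -0.15 to 0.06), Stat2 RNA (0.07 in replicates 1 and 2, -0.25 to 0.003) and B2m RNA (-0.66 to 0.04). They also turned for Stat2 footprints (-0.0038 in replicates 1 and 2) and Nmi footprints (-0.14 to 0.10 with a library left out). In TE they turned for Gbp2 (-0.02 to 1.46), Gbp3 (0.01 in replicates 3 and 4, -0.42 to 0.04), Irf9 (0.09 in replicates 1 and 2), Stat2 (-0.07 in replicates 1 and 2) and B2m (0.16 in replicates 3 and 4, -0.42 to 0.12). Fewer libraries leave fewer degrees of freedom; other causes were not tested. Low counts limit Irf7 and Gbp7 RNA.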
